A study of Mus musculus with 3 samples.

Results

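The ephrin, Eph receptor, semaphorin and plexin genes were read from 3 RNA-seq libraries of wounded mouse fibroblasts. They were chosen by gene name alone, as every row of the table named Efna or Efnb, Epha or Ephb, Sema or Plxn with the number and letter of a family member. The rule found 51 genes among 43472 rows, 49 of them with reads. They comprise 8 ephrins, 14 Eph receptors, 20 semaphorins and 9 plexins. All 3 libraries belong to 1 group and are labelled replicates 1, 2 and 3. These wounded cells received the soluble micrograft (MG) together with PD0325901 (1 μM) for 5 h. The cells were primary fibroblasts from the tail tip of C57BL/6 mice, scratched in culture. The soluble MG is the cell-free extract of minced mouse skin, added at a dilution of 1:10, and PD0325901 blocks the kinase MEK, which activates ERK. Animal age is not given in the sources used here. Untreated and MG-only cells were not analysed here, so the comparisons are between replicates and between genes, and no effect of MG or of the inhibitor was computed.

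These genes encode short-range guidance cues and their receptors. Ephrins are bound to the cell surface, ephrin-A proteins by a lipid anchor and ephrin-B proteins by a transmembrane domain, and they activate Eph receptor tyrosine kinases on a neighbouring cell, with signals running in both cells. Semaphorins of class 3 are secreted and act through plexins with neuropilins as co-receptors, classes 4, 5 and 6 are transmembrane proteins, and class 7 is lipid-anchored. Plexins carry a domain that switches off small Ras-family GTPases. Both systems are known from axon guidance and vessel growth, and in skin they take part in how fibroblasts and keratinocytes move, repel each other and sort.

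The values are normalized counts, that is, reads per gene divided by a size factor for each library. Depth was 17244505 to 27037783 reads on genes. A count of 0 reads allows up to 3 reads, or 2.61, 2.11 and 3.56 normalized counts in replicates 1, 2 and 3, and such limits cover counting error only. A gene is called detected here where none of its libraries lies under 10 normalized counts, and 8 of 8 fibroblast markers were detected. Of the markers of other cells, 1 of 6 keratinocyte, 1 of 6 leukocyte, 0 of 6 endothelial, 2 of 6 glial, 2 of 6 neuronal, 2 of 6 skeletal muscle and 3 of 5 pericyte markers were detected. A few of these were high, with means of 6752 normalized counts for the pericyte marker Cspg4 and 5100 for Acta1 of skeletal muscle. Tubb3 of neurons had a mean of 811. Fibroblast markers had means from 260 for Pdgfra to 185951 for Col1a1, with 2988 for Pdgfrb. In the same lists of other cells, Rgs5, Notch3, Des and Stmn2 had means of 139, 97.4, 499 and 79.0. The rest of these lists had means of at most 1.70, namely Kcnj8, Abcc9, Myod1, Myog, Ckm, Myf5, Rbfox3, Snap25, Syt1 and Elavl4. Across the table, replicate 2 was the library most often more than 2-fold away from both others, and its value is given for each gene named with its levels.

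Of the 51 guidance genes, 39 were detected and 12 were not. Among the 49 with reads this is 79.6%, against 60.1% of all 20322 genes with reads. All 51 guidance genes are protein-coding, whereas the genes at large were not limited to that class. The median over the detected guidance genes was 223 normalized counts, below the median of 511 over all detected genes. Epha10 and Plxnb3 had no read in any library. Epha6, Epha8, Ephb1 and Sema5b had at most 3 reads in any library. A further 6 genes had reads but missed the minimum in at least 1 library, namely Efnb3, Epha5, Epha7, Sema3g, Sema4a and Sema4d.

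**Figure D1:**
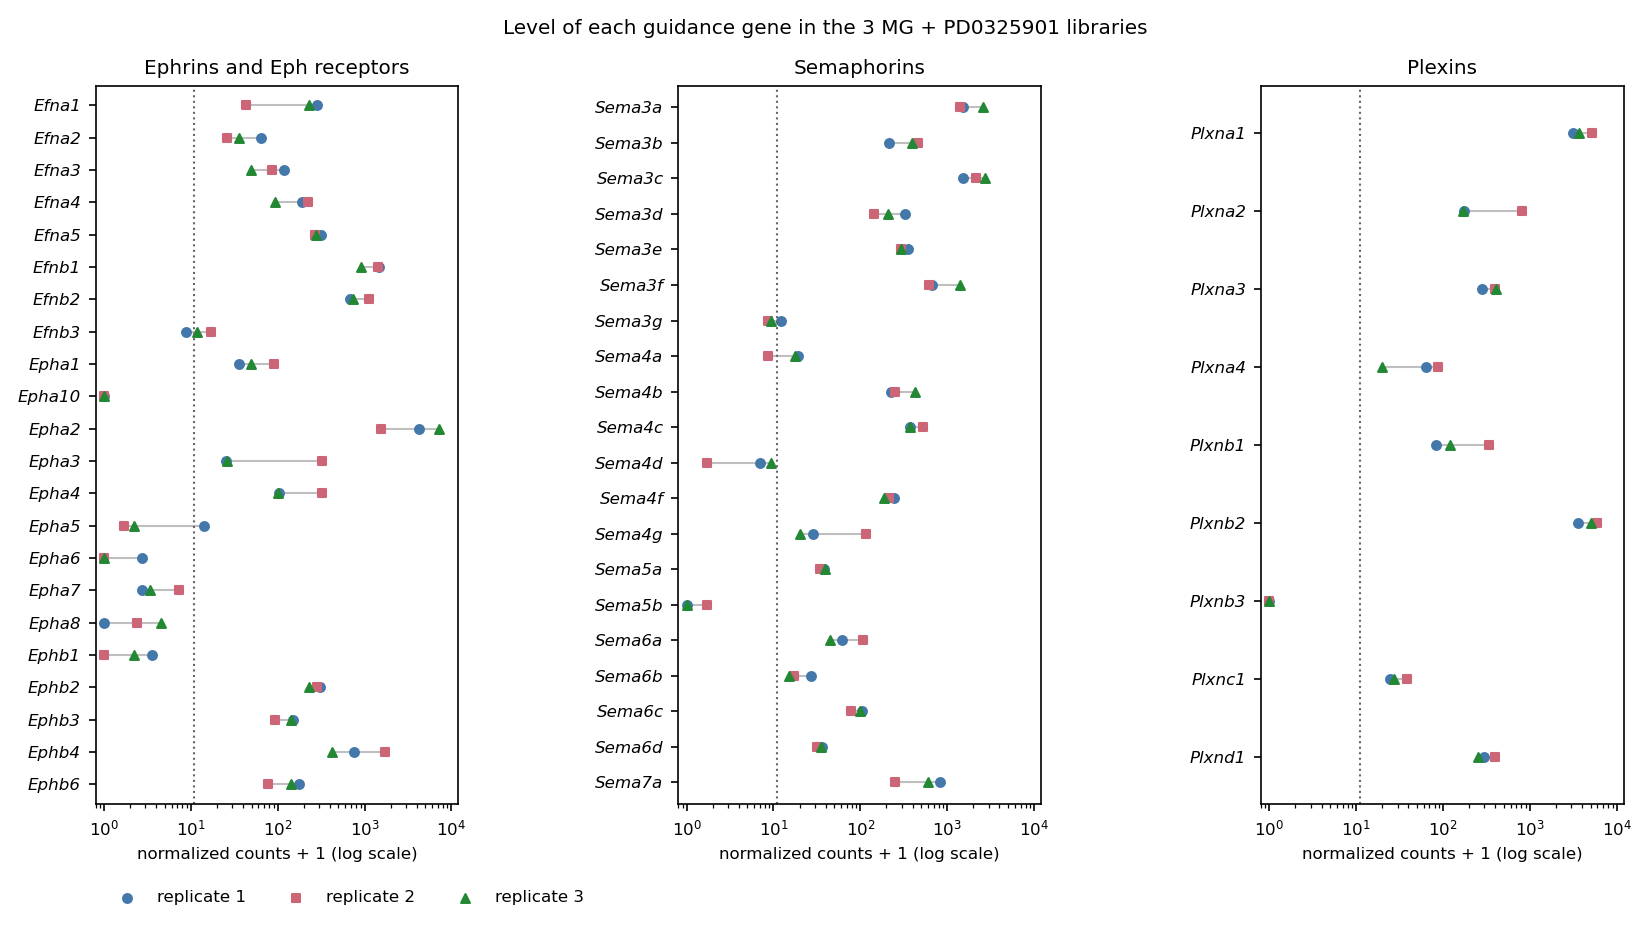
Normalized counts plus 1 on a log axis for each of the 51 guidance genes, with 1 point per library (replicates 1, 2 and 3), a grey line over their range and a dotted line at the minimum of 10 normalized counts. Epha2, Plxnb2, Plxna1, Sema3c, Sema3a and Efnb1 lie highest, and among genes above the dotted line in every library the widest gaps belong to Epha3, Efna1, Sema4g and Plxna2, where replicate 2 lies away from the others.

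Longer transcripts collect more reads, so levels were compared between genes as normalized counts per kb of exon. On this scale 5 genes, Epha2, Plxnb2, Plxna1, Efnb1 and Sema3c, held 60.0% of the summed level of all 51. Eph receptors summed to 1251 ± 436 per kb (SD, n = 3), plexins to 1203 ± 311, semaphorins to 1135 ± 217 and ephrins to 826 ± 153. Over the 3 libraries the ephrins (657 to 956) lay below the semaphorins (992 to 1385), while the ranges of the other pairs of totals overlapped. In replicate 2 the plexins were above the Eph receptors, with 1527 against 856 per kb. Most families rested on 1 leading gene. Epha2 held 90.6% of the EphA sum, Plxnb2 97.3% of plexin-B, Plxna1 86.1% of plexin-A, Efnb1 74.0% of ephrin-B and Ephb4 68.1% of EphB, as means over the 3 libraries. The class 3 and class 4 semaphorins were spread more evenly, with 40.4% in Sema3c and 46.9% in Sema4c. Ephrin-A had no stable leader, since the share of Efna4 was 27.5%, 50.5% and 20.0% in replicates 1, 2 and 3.

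**Figure D2:**
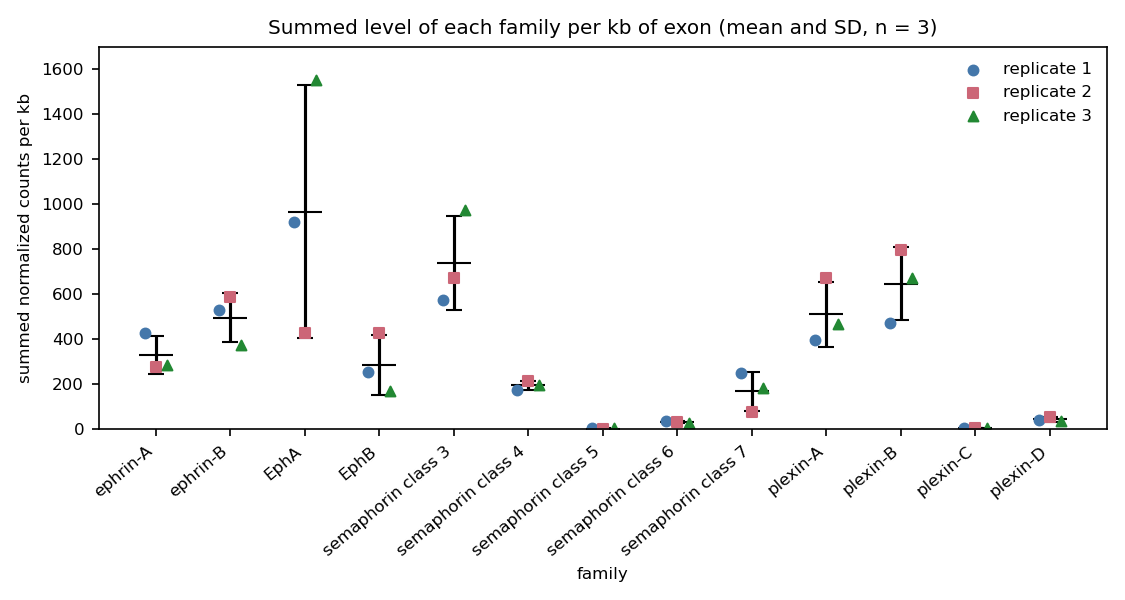
Summed normalized counts per kb of exon (vertical axis, starting at 0) for each of the 13 families, with 1 point per library, a horizontal bar for the mean and error bars for the SD (n = 3). EphA shows the widest spread, from 428 in replicate 2 to 1552 in replicate 3, while semaphorin class 4 lies between 174 and 212.

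Promoter sequences from RefSeq (GRCm38.p6, the build of mm10) were available for 45 of the 51 genes in 59 windows, each of 250 bases before and 50 bases after an annotated start. Since the study concerns AP-1, the windows were searched on both strands for TGANTCA, a broad form of the AP-1 site. It allows any base at the centre, so a match need not be the classical site. These letters read the same on either strand. They were found for 3 of 45 guidance genes (6.67%), against 8.12% of 17492 protein-coding genes in the same table. The central base was C in Sema4c, A in Sema4d and G in Sema6b. Read on the opposite strand, the letters of Sema4c are those of Sema6b, so both genes hold the same site. The matches are shown 5′ to 3′ with 10 bases on either side and the matching letters in capitals. They lie on the minus strand at chr1:36558387-36558413, chr13:51749033-51749059 and chr17:56133884-56133910. They begin 22, 239 and 48 bases before 1 of several annotated starts of the gene, and the other windows of these genes held no match. The Sema4d and Sema6b matches lie inside the annotated genes, which run from 51685529 to 51793747 and from 56123085 to 56140343.
Sema4c: gcgcagacctTGACTCAcgagctgcaa
Sema4d: cccacatcccTGAATCAgcctatatag
Sema6b: acacgtactcTGAGTCAcaaatcctgg
The 8 letters of the cAMP response element, TGACGTCA, were found for 1 guidance gene, Epha2 (2.22%), against 2.54% of protein-coding genes. Its site is shown because Epha2 had the highest level per kb of all 51 genes, and it begins 33 bases before the start at chr4:141301178-141301205 on the plus strand.
Epha2: gtggtttcggTGACGTCAgcgcagggca
A match is a description of the letters in the window and does not show binding.

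The promoter windows of the guidance genes were rich in CpG. Their median GC content was 64.0% and their median number of CpG was 20.0 per window, against 56.3% and 13.0 over 21263 protein-coding windows. At least 10 CpG were present in 76.3% of the guidance windows and in 56.8% of the protein-coding windows. The 250 bases before the start are printed for a gene that was lower in replicate 2, Sema7a (chr9:57939862-57940111, plus strand, 17 CpG), and for a gene that was higher there, Ephb4 (chr5:137349859-137350108, plus strand, 12 CpG), with each CpG in capitals. Neither window holds TGANTCA or TGACGTCA.
Sema7a: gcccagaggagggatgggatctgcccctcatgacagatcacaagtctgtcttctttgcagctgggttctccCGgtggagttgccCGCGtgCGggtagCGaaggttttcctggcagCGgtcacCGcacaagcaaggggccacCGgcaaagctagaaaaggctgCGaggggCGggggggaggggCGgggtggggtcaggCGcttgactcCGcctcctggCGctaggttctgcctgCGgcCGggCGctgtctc
Ephb4: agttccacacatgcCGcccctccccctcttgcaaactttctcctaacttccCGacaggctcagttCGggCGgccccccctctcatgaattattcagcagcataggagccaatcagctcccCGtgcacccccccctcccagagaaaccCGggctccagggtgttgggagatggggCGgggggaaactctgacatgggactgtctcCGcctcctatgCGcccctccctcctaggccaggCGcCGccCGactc

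Among the ephrin-B ligands, Efnb1 and Efnb2 were well detected in every library and Efnb3 was close to the minimum. Efnb1 lies on chromosome X, 99136130 to 99148991, on the plus strand of GRCm38. Its 3 libraries held 1480, 1435 and 901 normalized counts, and below as here 3 values in a row are those of replicates 1, 2 and 3. Efnb2, the ligand best known as a partner of EphB4 at the border of arteries and veins, had 676, 1134 and 740. Per kb, Efnb1 was above Efnb2 in each library and their ranges did not overlap, with means of 368 ± 93.3 and 124 ± 36.3 (SD, n = 3). Efnb3 had 7.82, 16.2 and 10.7 normalized counts, which rested on 9, 23 and 9 reads. No pair of libraries was distinguished for it (adjusted p = 0.101, 0.721 and 0.440, exact binomial test).

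All 5 ephrin-A ligands were detected, and they differed in how steady they were. Efna5 had 310, 271 and 273 normalized counts, a 1.14-fold range. The exact binomial test found no difference between any pair of libraries for it (two-sided, Benjamini-Hochberg adjusted p = 0.0964, 0.203 and 0.990). Efna1, a ligand of EphA2 known as a gene induced by inflammatory cytokines, had 283, 41.6 and 228 normalized counts. Replicate 2 was thus 5.37-fold lower than the nearer library (adjusted p = 3.87e-58 against replicate 1, exact binomial test of the reads). Here and below, fold differences of single genes were taken with 1 added to each count. Efna4 had 188, 224 and 91.3 normalized counts, with replicate 3 lowest. Efna3, with 118, 86.0 and 48.6, was likewise lowest in replicate 3, and Efna2, with 62.5, 25.4 and 34.4, was lowest in replicate 2. By level per kb, Efna4 (105 ± 42.9), Efna1 (101 ± 69.1) and Efna5 (70.6 ± 5.45) overlapped between libraries and had no firm order, and Efna5 was above Efna3 (34.6 ± 14.3) without overlap.

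The EphA receptors were represented by Epha2, and 5 of the 9 genes were at or near the limit of detection. Epha2 (chromosome 4, 141301240 to 141329384, plus strand), a receptor common in epithelia, had 4186, 1526 and 7121 normalized counts. Its 3 libraries were all different by the exact binomial test, with replicate 2 lowest and 2.74-fold below replicate 1. Epha3 and Epha4 had the opposite pattern. Epha3, a receptor of mesenchymal and stromal cells, had 24.3, 326 and 24.9 normalized counts, which put replicate 2 12.6-fold above both others. Epha4, which binds ephrins of both classes, had 103, 323 and 99.6. In both genes replicates 1 and 3 were not distinguished from each other (adjusted p = 1.00 and 0.882, exact binomial test). Epha2 held 97.2% and 98.2% of the EphA level per kb in replicates 1 and 3 and 76.3% in replicate 2.

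Epha1 had 34.7, 89.5 and 48.6 normalized counts and was also highest in replicate 2, 1.82-fold above the nearer library. Per kb, Epha4 (21.8 ± 15.9), Epha1 (14.7 ± 7.25) and Epha3 (14.4 ± 20.0) were not separated. Epha5, a receptor of neurons, had 13.0, 0.705 and 1.19 normalized counts from 15, 1 and 1 reads. Epha7 had 2 to 9 reads per library, and Epha6 had 2 reads in replicate 1 and none in the others.

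Of the EphB receptors, 4 of 5 were detected, and Ephb4 was above the others in each library. Ephb4 (chromosome 5, 137350109 to 137378669, plus strand), the receptor that marks veins, had 753, 1725 and 418 normalized counts, and all 3 pairs of libraries differed by the exact binomial test. Its level per kb was 208 ± 146 (SD, n = 3), without overlap with Ephb6 at 34.5 ± 13.2. The endothelial markers Emcn and Cldn5 had no read, and Pecam1, Cdh5 and Kdr had at most 9.55 normalized counts. Of these, Pecam1 (9.55, 3.52 and 2.37) and Kdr (4.34, 1.41 and 0) were highest in replicate 1, and Cdh5 had 0, 0 and 1.19. The remaining endothelial marker, Tek, had 6.95, 185 and 2.37 and was highest in replicate 2, as Ephb4 was. The part of these markers in the Ephb4 level was not tested. Ephb2 had 305, 280 and 228 normalized counts and Ephb3 had 149, 93.0 and 141, each within a 1.60-fold range. Ephb6, whose kinase domain is inactive, had 174, 76.1 and 141, with replicate 2 lowest. Per kb, Ephb6, Ephb2 and Ephb3 overlapped with their neighbours in order. Ephb1 had 3, 0 and 1 reads.

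Secreted class 3 semaphorins had the highest sum of the semaphorin classes, 739 ± 211 per kb (SD, n = 3), and 6 of 7 were detected. Sema3c had 1524, 2172 and 2689 normalized counts, and Sema3a, the classical repellent of growing axons, had 1512, 1394 and 2610. Sema3f, which signals through neuropilin-2, had 661, 613 and 1412. In all 3 genes replicate 3 was the highest library, and in Sema3f it was 2.13-fold above the nearer of the others. Per kb the order Sema3c, Sema3f, Sema3a was kept in every library, but the ranges of neighbours overlapped, with means of 298 ± 81.8, 172 ± 86.2 and 133 ± 48.4. Sema3b had 211, 466 and 390 normalized counts, lowest in replicate 1. Sema3d had 323, 141 and 206, highest in replicate 1.

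Sema3e, the ligand that binds plexin-D1 without a neuropilin, was among the steadiest genes by range, with 356, 293 and 296 normalized counts. Replicate 1 still differed from replicates 2 and 3 in this gene (adjusted p = 0.00931 and 0.0436, exact binomial test). The receptor gene Plxnd1 had 293, 394 and 250. Sema3g had 7 to 13 reads per library, and no pair of libraries was distinguished for it.

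Transmembrane semaphorins were lower. Per kb, class 4 summed to 194 ± 19.1, class 6 to 31.6 ± 2.99 and class 5 to 1.97 ± 0.0836 (SD, n = 3). These 3 sums had range ratios of 1.22, 1.21 and 1.08 between libraries, against 3.63 for EphA, although single members moved further. Sema4c had 370, 521 and 369 normalized counts, Sema4b had 224, 248 and 422, and Sema4f had 246, 211 and 187. Sema4g had 27.8, 115 and 19.0, with replicate 2 4.02-fold above the nearer library. Sema4a had 18.2, 7.75 and 16.6 normalized counts from 21, 11 and 14 reads. Replicate 2 was 2.01-fold below the nearer library, and the difference between replicates 2 and 3 missed the threshold (adjusted p = 0.0942, exact binomial test). Sema4d, the ligand of plexin-B1, had 7, 1 and 7 reads.

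Class 6 genes, which act through plexin-A proteins, were all detected at low levels. Sema6a had 59.9, 107 and 43.9 normalized counts and was highest in replicate 2, while Sema6c with 104, 76.8 and 98.4 was lowest there. Sema6b had 26.1, 16.2 and 14.2. Sema6d, with 35.6, 31.0 and 34.4, and Sema5a of class 5, with 37.3, 33.1 and 37.9, differed by no more than 1.14-fold, and no pair of libraries was distinguished for either. Each rested on 29 to 47 reads per library, and the 95% Poisson interval of 29 reads runs from 19.4 to 41.6, so smaller differences were not detectable at this depth.

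Sema7a, the lipid-anchored semaphorin that signals through integrin β1 as well as plexin-C1, had 815, 251 and 599 normalized counts. Replicate 2 was 2.38-fold below the nearer library, and all 3 pairs differed by the exact binomial test (adjusted p = 2.84e-89 for replicates 1 and 2). Per kb its mean of 168 ± 86.2 was close to that of Sema3f. Of its receptors, Plxnc1 had 23.4, 38.0 and 26.1 normalized counts, or 3.50 ± 0.932 per kb, and Itgb1 had 36264, 37118 and 42075 normalized counts, or 9430 per kb.

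Among the plexins, Plxnb2 and Plxna1 were far above the others and similar in spread. Plxnb2 (chromosome 15, 89155549 to 89180788, minus strand) had 3573, 5886 and 5091 normalized counts. Plxna1, a receptor for class 3 and class 6 semaphorins, had 3104, 5140 and 3654. For both, replicate 2 was highest and replicate 1 lowest, within 1.66-fold. Plxnb1, the receptor of Sema4d, was far lower, with 82.5, 335 and 121, and replicate 2 was 2.75-fold above the nearer library. Per kb, Plxnb2 at 628 ± 152 and Plxnb1 at 18.7 ± 14.2 did not overlap.

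Plxna2 had 174, 818 and 167 normalized counts, with replicate 2 4.69-fold above the nearer library and replicates 1 and 3 not distinguished (adjusted p = 0.815, exact binomial test). Plxna3 had 284, 392 and 404. Plxna4, best known from neurons, had 63.4, 87.4 and 19.0, with replicate 3 3.23-fold below the nearer library on 16 reads. The neuropilin genes, whose products pair with plexin-A proteins, had 2233, 4256 and 1794 normalized counts for Nrp1 and 1407, 1463 and 2024 for Nrp2.

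The guidance genes spanned more than 2-fold between replicates more often than detected genes at large. Of the 39 detected, 19 (48.7%) spanned more than 2-fold between their lowest and highest libraries, with 1 added to each count, against 21.6% of all 12204 detected genes. Since spread depends on level, the count was also taken for means of at least 100 normalized counts. There it was 13 of 28 guidance genes (46.4%) against 16.5% of 9979 genes, though this limit does not match their levels. On the log2(normalized count + 1) scale their SD had a median of 0.49, against 0.30 over all detected genes, and without replicate 2 the medians were 0.31 and 0.20. The median biological coefficient of variation from edgeR was 35.2% against 28.6%, and without replicate 2 it was 24.8% against 20.8%. Without replicate 2, 4 of 40 guidance genes (10.0%) were more than 2-fold apart between replicates 1 and 3, against 6.39% of 12545 genes. These 4 were Efna3, Efna4, Plxna4 and Sema3f. The 2-fold count was 13 without replicate 1 and 14 without replicate 3. Members are not independent replicates, and no test was made of the lists.

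**Figure D3:**
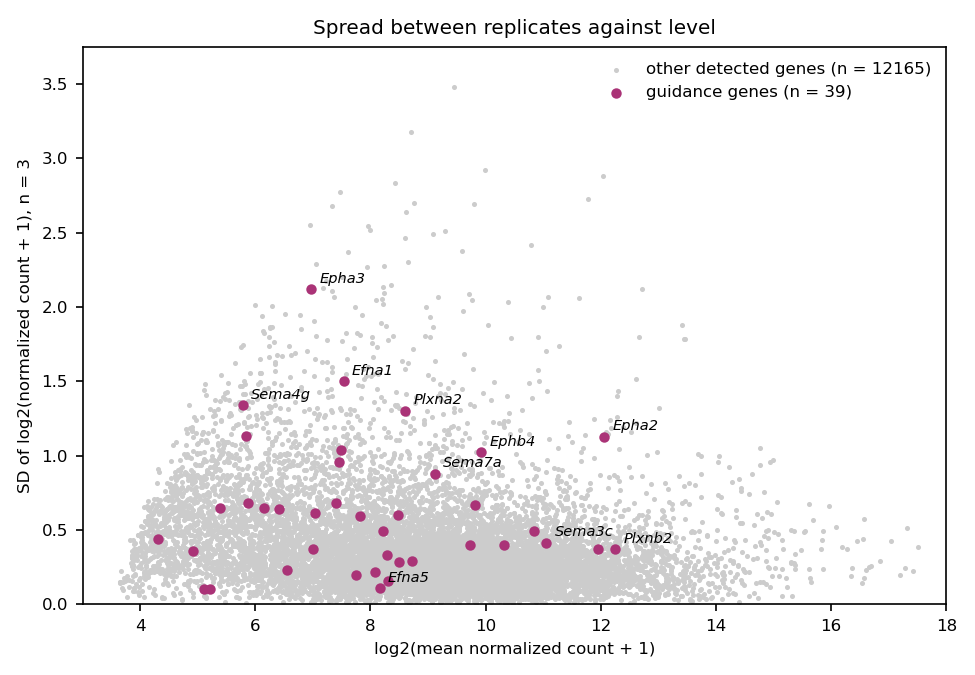
SD of log2(normalized count + 1) over the 3 libraries (vertical axis) against log2(mean normalized count + 1) (horizontal axis) for 39 detected guidance genes in purple and 12165 other detected genes in grey. Epha3 has the widest spread of the guidance genes at 2.12, and Efna5 lies low at 0.11.

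Replicate 2 was the library most often apart among the guidance genes. Of 41 guidance genes with a mean of at least 10 normalized counts, replicate 2 was more than 2-fold above both other libraries in 6 (14.6%), against 5.20% of 13154 genes. These were Epha3, Epha4, Ephb4, Plxna2, Plxnb1 and Sema4g. Replicate 2 was more than 2-fold below both others in 4 (9.76%), against 4.87%, namely Efna1, Epha2, Sema7a and Sema4a. Without replicate 2 the means of the 6 higher genes were 24.6 in place of 125 normalized counts for Epha3, 101 in place of 175 for Epha4, 586 in place of 965 for Ephb4, 170 in place of 386 for Plxna2, 102 in place of 179 for Plxnb1 and 23.4 in place of 53.9 for Sema4g. Replicate 3 was above both others in Sema3f alone (2.44%, background 1.28%) and below both in Efna4 and Plxna4 (4.88%, background 2.30%). Replicate 1 was apart in no guidance gene in either direction, where the background was 2.29% above and 1.97% below. In bulk samples, fewer cells of a type and less RNA per cell cannot be told apart.

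**Figure D4:**
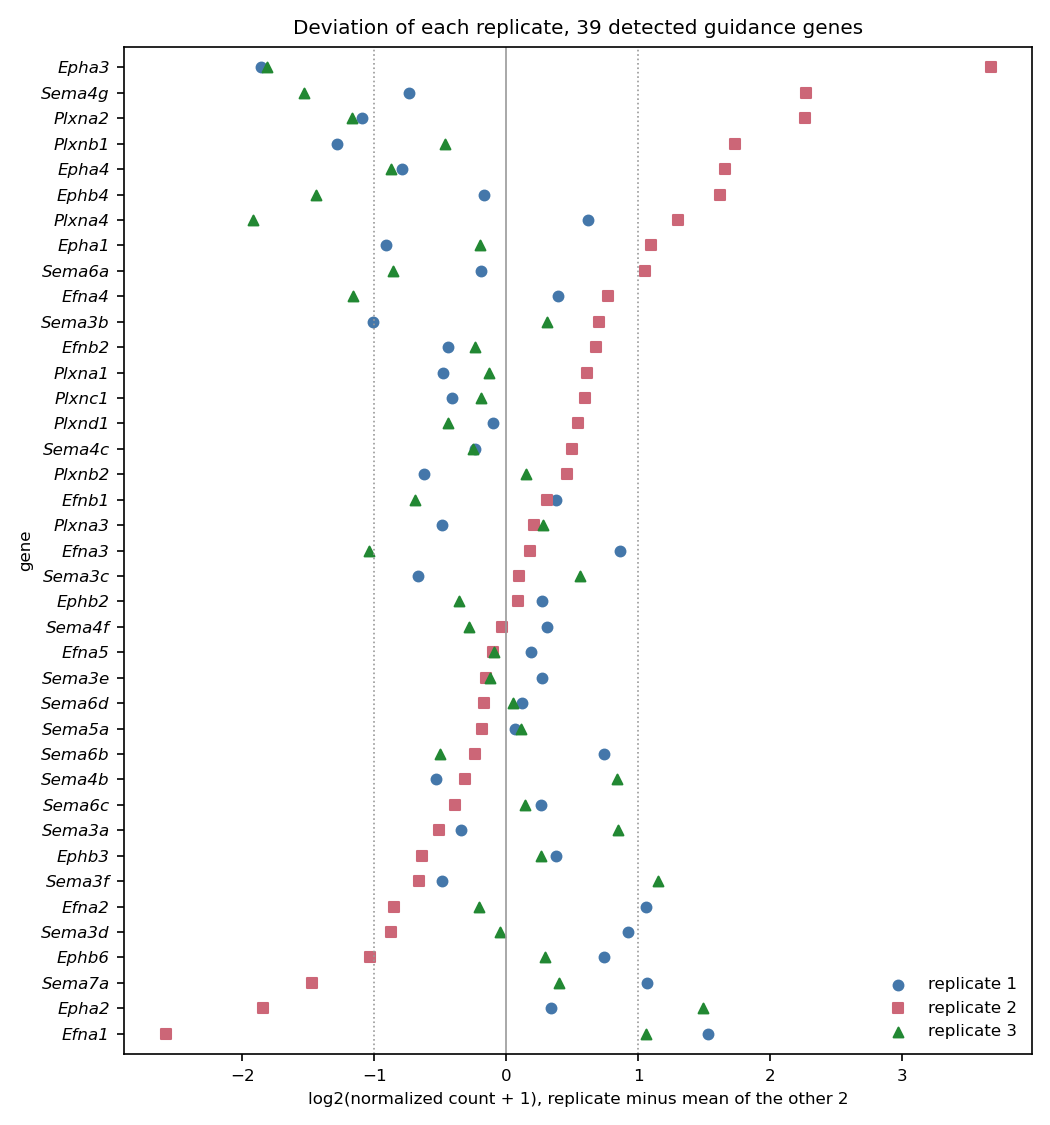
For each of the 39 detected guidance genes, ordered by replicate 2, the log2(normalized count + 1) of each replicate minus the mean of the other 2, with dotted lines at -1 and 1. Replicate 2 runs from -2.58 at Efna1 to 3.67 at Epha3, and near its middle Efna5, Sema3e, Sema6d and Sema5a have all 3 points close to 0.

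Some markers of other cells were also apart in replicate 2, while others were not. Over all genes with a mean of at least 10, replicate 2 was more than 2-fold above both others in 5.20%. It was below both in 4.87%. Among markers with that mean, replicate 2 was above by this limit in 1 of 1 endothelial marker, Tek. The same held for 1 of 2 skeletal muscle markers, Des, and 1 of 3 pericyte markers, Notch3. Replicate 2 was below in 1 of 2 glial markers, S100b, and in 2 of 8 fibroblast markers, Lum and Dcn. Dcn had 3661, 1723 and 3659 normalized counts. Replicate 2 was apart in 0 of 1 keratinocyte, 0 of 2 leukocyte and 0 of 2 neuronal markers. Each list is short, so its count is not read as a trait of a cell type. Summed over each whole list, normalized counts in replicates 1, 2 and 3 were 20.8, 190 and 5.93 for the endothelial markers, of which Tek alone gave 6.95, 185 and 2.37. The skeletal muscle markers summed to 2641, 8494 and 5664, with Myod1 and Myf5 at 0 and Des at 212, 1208 and 77.0. Acta1 made up most of this sum, at 2429, 7286 and 5586, and was lowest in replicate 1. Pericyte markers summed to 3796, 5571 and 11604, highest in replicate 3. Cspg4 made up most of this sum, at 3546, 5232 and 11476, while Notch3 had 40.8, 228 and 23.7 and Rgs5 had 208, 106 and 104. Glial markers summed to 155, 60.6 and 167, with Sox10 at most 2.37. Neuronal markers summed to 514, 1255 and 904, with Rbfox3 and Snap25 at 0. Tubb3 made up most of this sum, at 485, 1222 and 725. Leukocyte markers summed to 26.9, 41.6 and 90.1 with Cd3e at 0. Keratinocyte markers summed to 87.7, 43.0 and 45.0 with Krt15 and Krt1 at 0, and Krt10 alone gave 80.8, 39.5 and 32.0. The fibroblast markers summed to 345263, 371184 and 511183, and Lum among them had 5073, 289 and 1164. The part of these markers in the spread of the guidance genes was not tested.

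The reads of single genes were also compared between libraries, to set the differences against counting error. By exact binomial tests of the reads, two-sided and adjusted over all genes tested, 30 of 44 guidance genes differed between replicates 1 and 2 (68.2%, background 69.1%). Between replicates 1 and 3, 23 of 44 differed (52.3%, background 52.0%), and between replicates 2 and 3, 29 of 43 (67.4%, background 62.6%). These shares are near the background. All 3 pairs differed for 13 detected genes, among them Epha2, Efna1, Ephb4, Plxna1, Plxnb2, Sema3c and Sema7a. No pair was called for 5 detected genes, namely Efna5, Plxnc1, Sema5a, Sema6b and Sema6d. The share over all detected genes is not given for either count, so neither is read as a trait of the guidance genes. The tests compare libraries, not conditions, and cover counting error only.

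The genes of neighbouring pathways were read from 4 lists chosen by function. Over the whole table, 60.1% of genes with reads were detected. Among all genes with a mean of at least 10 normalized counts, replicate 2 was more than 2-fold above both others in 5.20% and below in 4.87%. Of 9 semaphorin co-receptor genes 7 were detected, led by Itgb1 and Nrp1, and replicate 2 was more than 2-fold below both others in 1, L1cam, a neural adhesion molecule with 269, 76.1 and 256 normalized counts. Of 21 netrin, Slit and RGM guidance genes 14 were detected. The highest were the netrin receptor gene Unc5b, with 4990, 2826 and 4783 normalized counts, and Ntn4, a netrin of basement membranes, with 1333, 2090 and 2010. Replicate 2 was more than 2-fold above both others in 2 genes of this list and below in 1, all of them Slit genes, which encode secreted repellents for Robo receptors. The higher ones were Slit2 and Slit3, with 663, 2724 and 723 for Slit2 and 815, 2950 and 781 for Slit3. The lower was Slit1, with 13.9, 2.11 and 23.7 from 16, 3 and 20 reads. Robo1 had 494, 376 and 582, and Robo4 and Dcc had no read.

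Of 22 Eph and ephrin effector genes 19 were detected, with the adaptor Crk (3908, 5265 and 4374 normalized counts) and the scaffold Sdcbp (4356, 3403 and 3990) highest. Replicate 2 was more than 2-fold above both others in 2 of 20 with a mean of at least 10, and below in 0. Over all genes with that mean the shares were 5.20% above and 4.87% below. Of 23 plexin and semaphorin effector genes 21 were detected, with the GTPase Rap1b (6772, 4762 and 5961) and Dpysl3, a mediator of collapse at the growth cone (6068, 4922 and 5913), highest. In this list replicate 2 was above both others by the same limit in 2 of 22 genes, and below in 1. Rnd1, a GTPase that binds plexins, had 5651, 1505 and 6787, with replicate 2 more than 2-fold below both others. Fer, a tyrosine kinase linked to plexin-A signalling, had 265, 793 and 385, with replicate 2 more than 2-fold above. In these 4 lists the median difference of replicate 2 from the others was -0.21, -0.24, 0.35 and -0.04 on the log2 scale, in the order given, against 0.18 for the guidance genes and 0.03 for all detected genes.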

How the data were processed

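Per the labels and the methods of the study, 50 bp single-end reads of stranded mRNA libraries were aligned to mm10 with TopHat, and unique reads were counted per gene with HTSeq. The annotation, the strand setting and the libraries behind the size factors are not given in the sources used here. The deposited signal is a table of gene counts that the authors divided by 1 size factor per library. Divided by the value of 1 read, 100% of the entries came out whole within 0.01, and the reads recovered summed to 22540518, 27037783 and 17244505. A further 3 columns of per-sample values matched no label and were not used. Mean and SD are of normalized counts, and 1 was added before taking log2. Recovered reads of each pair were set against the size factors in exact binomial tests, two-sided, for genes holding 10 or more reads in both libraries together, Benjamini-Hochberg adjusted at 0.05, which called 10201 of 14771, 7438 of 14316 and 8985 of 14344 genes. edgeR 4.0.16 gave TMM factors and tagwise dispersions. Python 3.11.15 with scipy 1.17.1 was used for the rest, and the steps were tested on simulated data. Positions and merged exon lengths came from GENCODE M21 of GRCm38, in which all 51 genes matched by symbol. Promoters came from RefSeq.

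The guidance genes and all lists were chosen with earlier results of these data known. Values in every library were to be given for genes with a mean of at least 100 normalized counts, for genes with a replicate more than 2-fold from both others at a mean of at least 10, and for the leading gene of each family, with the other genes by range. From each pathway list, the highest 2 genes and any gene apart with a mean of at least 100 were named. Robo1, Robo4, Dcc, Slit1, Nrp2 and the low guidance genes given with their values were named after these were seen. Nothing in the sources says how the replicate cultures differed, so spread between them may be technical in part.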

Additional observations from a re-analysis of the deposited data

How the results depend on the processing

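No paired analysis was possible because the libraries form 1 group. Under the alternatives tried, 31 recomputed values moved by more than 1.5-fold (counts of genes), 1 SD between replicates (levels and shares) or the half-width of the interquartile range over genes (medians of spread), and 207 moved by less. The latter include the number of genes detected, which was 27 in place of 39 at a minimum of 50, and the median SD, which ranged from 0.31 (without replicate 2) to 0.48 when a replicate was left out. Without division by exon length the family sums were 761 for ephrin-A, 2133 for ephrin-B, 4646 for EphA, 1496 for EphB, 5765, 1006, 36.4, 216 and 555 for semaphorin classes 3 to 7, and 4769, 5029, 29.2 and 312 for plexin-A, B, C and D, in normalized counts, a change of unit by construction, and the shares of Efnb1 and Plxna1 were 59.5% and 83.9%. The 19 genes with a range over 2-fold became 11 at a minimum of 50 normalized counts and 30 at a 1.5-fold limit, and ranged from 4 (without replicate 2) to 14 when a replicate was left out, where fewer libraries narrow the range by construction. The median coefficient of variation was 44.5% with no minimum and ranged from 24.8% (without replicate 2) to 40.4% when a replicate was left out. Genes with replicate 1 above both others numbered 2 with no minimum and 3 at 1.5-fold, and below both 1 under either. Replicate 3 was above in 4 and below in 5 at 1.5-fold, and below in 1 with a pseudocount of 10. Requiring more than 2-fold, the pair tests called 16, 5 and 13 genes for replicates 1 and 2, 1 and 3, and 2 and 3. With the letters of the cAMP response element in place of AP-1, 1 gene held a match. The range count at a mean of at least 100 was added after seeing the data. None of 49 mean levels moved by more than 1 SD under equal totals or TMM scaling. Depth limits the lowest genes: the 95% Poisson interval of the 9 reads of Efnb3 in replicate 1 runs from 4.12 to 17.1.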

Other observations

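Several of these genes lie close together. Efna1, Efna3 and Efna4 share a stretch of chromosome 3 from 89271733 to 89338028 (GRCm38), with gaps of 32.8 kb and 10.4 kb, and their highest libraries were replicates 1, 1 and 2. Efna1 was lowest in replicate 2, and Efna3 and Efna4 were lowest in replicate 3. Sema3b and Sema3f, 72.3 kb apart on chromosome 9, had their highest libraries in replicates 2 and 3. Epha8 and Ephb2 lie 93.4 kb apart on chromosome 4, and Ephb2 had 305, 280 and 228 normalized counts where Epha8 had 0, 2 and 3 reads. Sema3a and Sema3e lie 423 kb apart on chromosome 5.

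Exons of 13 of the 51 genes overlap those of another annotated gene, among them Plxna1, Ephb4, Plxnb1 and Sema4c. With the strand setting of the counting not stated, reads of such neighbours cannot be assigned with certainty.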
